A study of Mus musculus with 12 samples.

Results

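The Wnt genes of the mouse uterine mesenchyme are described here: the ligands, their receptors and the secreted or intracellular proteins that tune the signal. Members were chosen by symbol, and 57 of the 47729 genes in the files belong to the group (19 ligands, 14 receptors and co-receptors, 8 genes of the R-spondin axis, 11 inhibitors, and 5 feedback or transcription genes). The cells were sorted by flow cytometry from healthy uteri of female, cycling Pdgfrb-BAC-eGFP mice. In these animals an artificial chromosome with the Pdgfrb locus drives green fluorescent protein (GFP). No treatment is named for either group, every library carries the reporter, and the sources used here give no age for the mice. One group, GFPtotal (Naive in the titles), holds all GFP-positive cells, and the other, GFPlow (Stromal in the titles, GFPdim in the population label), holds the dim stromal fibroblasts alone. Each group has 6 libraries and the study describes 12 mice. GFPtotal is a mixture of bright perivascular cells and dim fibroblasts, so the bright cells were not sequenced on their own. The comparison of GFPtotal with GFPlow serves to infer what marks them.

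Wnt proteins are secreted lipid-modified ligands that bind Frizzled receptors. Together with the co-receptors Lrp5 and Lrp6 they stabilise beta-catenin, which works with Tcf and Lef factors in the nucleus, and together with Ror1 and Ror2 they act without beta-catenin. R-spondins bind Lgr receptors and remove the ubiquitin ligases Znrf3 and Rnf43, which otherwise clear Frizzled from the cell surface. Sfrp proteins and Wif1 bind the ligands, Dkk proteins bind the co-receptors, Notum removes the lipid, and Axin2, Nkd1, Nkd2 and Lef1 are commonly induced by the signal. In the uterus the pathway is known for its part in development of the Müllerian duct, gland formation and decidualization.

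Total counts ranged from 12631266 to 18425596 per library. GFPtotal 3, 4 and 5 stood apart from the other 9 libraries on the first principal component of all tested genes, at 102 to 107 against −64.6 to 6.66. The file deposited for GFPlow 6 names its alignment N8 in its own header, whereas the other 11 files carry the name of their title, so results are also given without that library where it changes them. Its pericyte markers summed to 113 CPM, the highest GFPlow value, where the lowest GFPtotal library had 1033 CPM. Of the 113 CPM, Pdgfrb alone gave 87.1 CPM. Pdgfrb (chromosome 18), the gene of the reporter, had 114.3 ± 36.02 CPM (a counts-per-million scale) in GFPtotal beside 65.06 ± 15.02 CPM for GFPlow (SD, 6 libraries a group; exact two-sided permutation test, p = 0.00866, where 0.00216 is the smallest possible value). It passed edgeR's test (log2 fold change 0.81, adjusted p = 0.0305), and did so in 12 of 21 alternatives. It missed the threshold without GFPtotal 3, 4 and 5 (adjusted p = 0.207), with total library size scaling (0.0814), and with any single one of GFPtotal 4, 5 and 6 or GFPlow 1, 2, 3 and 5 left out (adjusted p = 0.0576 to 0.0789). Summed over 12 pericyte markers, GFPtotal libraries had 1033 to 1844 CPM and GFPlow libraries 68.4 to 113 CPM (9 of 9 tested higher). Pdgfrb, 1 of the 12, gave 78.9 to 171 and 50.7 to 87.1 CPM, most of the GFPlow sums. The 10 smooth muscle markers summed to 454 to 754 and 299 to 412 CPM (4 of 8 higher). Of these sums, Synpo2 alone gave 264 to 346 and 236 to 366 CPM. The 10 fibroblast markers summed to 24324 to 41978 and 16990 to 24877 CPM (2 of 10 higher). The 14 epithelial markers summed to 3.30 to 42.7 and 9.77 to 26.7 CPM, the 10 leukocyte markers to 1.05 to 2.58 and 1.41 to 8.44 CPM, the 11 T and NK cell markers to at most 0.466 and 0.295 CPM (8 of 11 at 0 counts everywhere), and the 7 Schwann cell and glial markers to 1.93 to 9.71 and 1.41 to 5.09 CPM. The 10 endothelial markers summed to 33.5 to 59.8 and 39.6 to 60.2 CPM (1 of 4 tested lower), with Cldn5 at 0 counts everywhere. The 6 mesothelial markers summed to 43.2 to 79.6 and 71.6 to 101 CPM, with Upk3b and Msln at 0 counts everywhere. Nearly all of the mesothelial sum was Wt1 (43.2 to 79.5 and 71.6 to 100.9 CPM). Since the labels do not say which mouse gave which library, p-values cover only the spread among the libraries.

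By edgeR, 5 of 33 tested Wnt genes were higher in GFPtotal (15.2%), beside 4.55% of all genes tested. Of the 5, 3 encode secreted inhibitors (Dkk2, Sfrp4 and Sfrp1), among 6 inhibitors tested. The R-spondin gene Rspo3 and the receptor gene Fzd4 rose as well, and the 5 fitted changes ran from 7.12-fold (Rspo3) to 51.4-fold (Dkk2). The ligand gene Wnt4 and the receptor gene Fzd2 were lower, by 1.74 and 1.01 on the log2 scale (6.06% of the 33, beside 0.854% of all genes tested). The ligand gene Wnt5a and the co-receptor gene Lrp6 did not pass the test, at −0.36 and 0.00. Of the genes called higher or lower here, only Dkk2 still passed edgeR's test without GFPtotal 3, 4 and 5 (adjusted p = 0.000159). The others had adjusted p = 0.199 to 0.521 in that fit. In these bulk samples, fewer cells of a type and less RNA per cell cannot be told apart.

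Of the 57 genes, 33 had enough counts to be tested and 24 did not. By edgeR's quasi-likelihood test, with Benjamini-Hochberg adjustment over all 14523 genes tested and a threshold of 0.05, 5 of the 33 were higher in GFPtotal (15.2%) and 2 were lower (6.06%). Over all genes tested, 4.55% were higher and 0.854% lower, 5.41% in all. A gene reaches the test more easily where 1 group has many counts, so these shares describe the tested members and not all 57. The median log2 fold change of the 33 was 0.13, beside 0.00 over all genes tested, and 17 were positive and 16 negative. An unadjusted p below 0.05 was found for 19 of the 33, and for 19.9% of all genes tested. Scaled by total library size alone, 505 genes were higher (3.48%) and 257 lower (1.77%) in place of 661 and 124, and 4 Wnt genes were higher and 2 lower. DESeq2 called 7 Wnt genes higher and 3 lower, beside 7.11% and 2.4% of all genes, and limma-voom 5 and 2, beside 4.65% and 1.58%. Without GFPtotal 3, 4 and 5, 2 Wnt genes were higher (Dkk2 and Lgr6) and 0 lower by edgeR, with 10 of 33 at an unadjusted p below 0.05 (5 of them lower), where 1.56% of all genes were higher and 0.318% lower. Groups of libraries did not overlap for 3 Wnt genes higher in GFPtotal (Dkk2, Sfrp4 and Fzd7) and 1 lower (Wnt4), while 2.86% and 0.806% of all tested genes were separated in these directions.

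**Figure D1:**
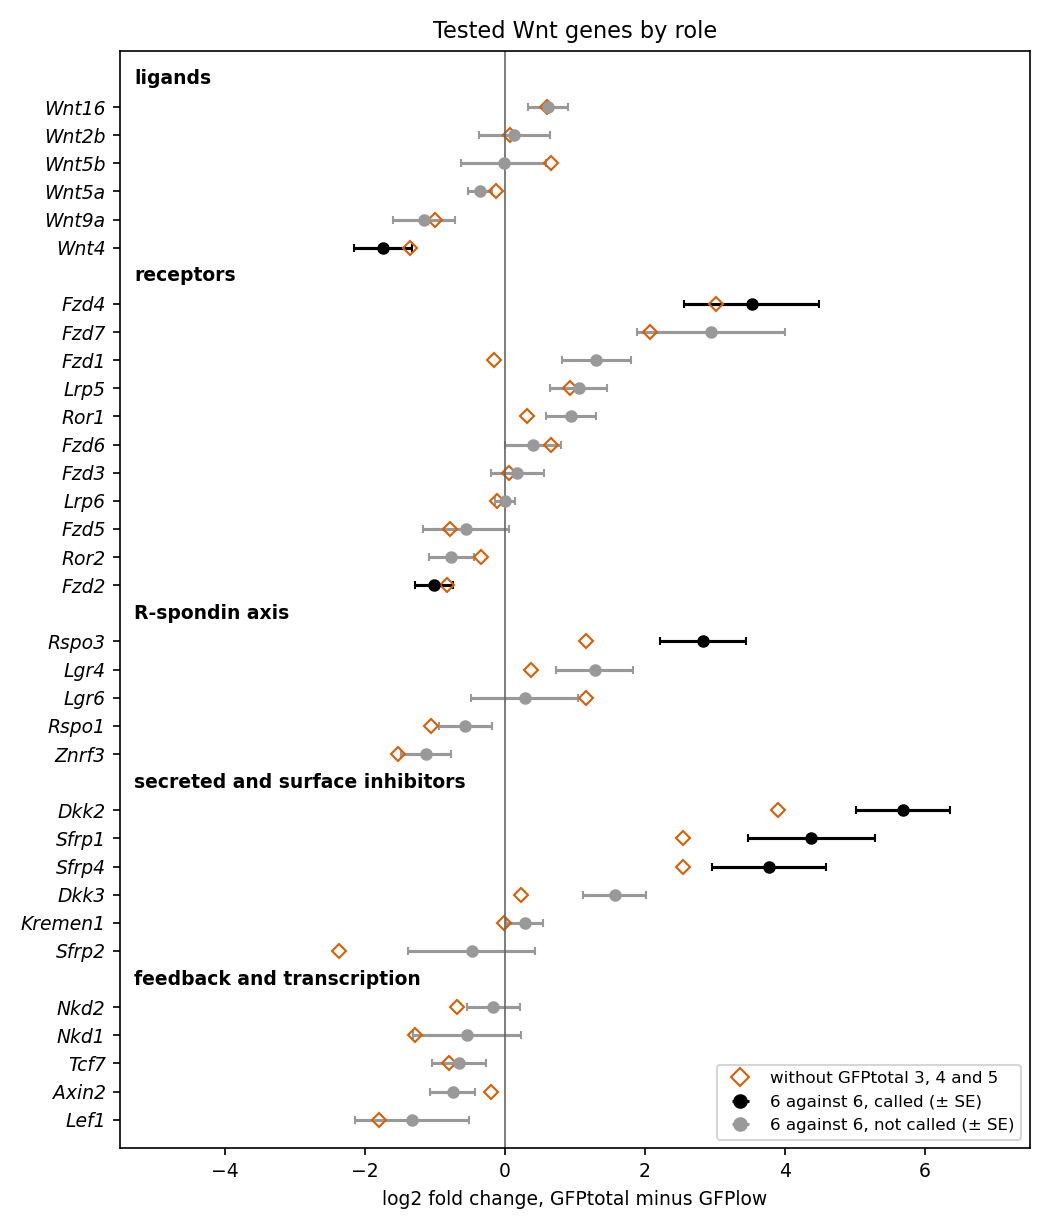
Log2 fold change of GFPtotal minus GFPlow for the 33 tested Wnt genes, grouped by role (x axis, log2 units; 1 gene per line). Filled points with bars are the estimate ± SE from 6 against 6 libraries, black where the gene passed the test and grey where it did not, and open diamonds are the estimates without GFPtotal 3, 4 and 5. Dkk2 lies farthest to the right in both fits, at 5.68 and 3.90.

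Dkk2 encodes a secreted protein that binds the co-receptors Lrp5 and Lrp6. The gene (ENSMUSG00000028031; GRCm38 chromosome 3, 132085292 to 132180304) stood at 16.5, 10.8, 102, 98.8, 51.4 and 16.0 CPM in GFPtotal 1 to 6 and at 1.52, 1.36, 0.629, 0.885, 0.364 and 0.923 CPM in GFPlow 1 to 6. All GFPtotal libraries lay above all GFPlow libraries, and GFPtotal 3, 4 and 5 were the highest. The log2 fold change came to 5.68 (SE 0.67; edgeR, adjusted p = 0.000264). Without GFPtotal 3, 4 and 5 it was 3.90 (adjusted p = 0.000159), and Dkk2 passed the test under all 21 alternatives that were run (log2 fold change 3.90 to 5.89, adjusted p at most 0.0324).

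The promoter windows of Dkk2 and Wnt4 are shown because these genes differed most in each direction among the called Wnt genes. Each spans 250 bases before to 50 bases after the start site, from RefSeq (GRCm38.p6), on the plus strand, at chr3:132085042-132085341 and chr4:137277385-137277684. Capitals mark a match to TATAAA, a motif chosen after the windows were read.
Dkk2: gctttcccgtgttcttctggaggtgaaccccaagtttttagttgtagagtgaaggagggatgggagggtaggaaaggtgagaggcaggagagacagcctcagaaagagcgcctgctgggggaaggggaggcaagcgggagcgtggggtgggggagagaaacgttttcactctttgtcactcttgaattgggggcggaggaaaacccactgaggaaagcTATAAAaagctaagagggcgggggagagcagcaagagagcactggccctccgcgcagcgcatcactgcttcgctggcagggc
Wnt4: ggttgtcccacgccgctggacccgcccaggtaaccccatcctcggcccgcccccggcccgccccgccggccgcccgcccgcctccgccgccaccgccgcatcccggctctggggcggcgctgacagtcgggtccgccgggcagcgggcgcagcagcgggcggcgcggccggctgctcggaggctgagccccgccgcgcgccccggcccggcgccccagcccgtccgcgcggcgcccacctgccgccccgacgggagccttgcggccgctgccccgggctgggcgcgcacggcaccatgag
The Dkk2 window held 1 TATAAA match, whose first base lies 32 bases before the start site, and the Wnt4 window held 0. Searched on both strands, TATAAA was in 13.6% of all 32851 windows and in 7 of 44 windows of the Wnt genes. The Wnt4 window was 84.3% G and C and the Dkk2 window 57.7%, beside a median of 52.7% over all windows. The core of the Tcf and Lef motif, searched on both strands as CTTTGAA and CTTTGAT, was in 8.65% of all windows and in 3 of the 44 windows of 37 Wnt genes, those of Dkk1, Wnt11 and Wnt5b. It was in neither window printed here, which says only that these letters are absent from this stretch.

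Sfrp4 and Sfrp1 encode secreted Frizzled-related proteins, which carry a Frizzled-like domain and bind Wnt ligands. Sfrp4 (ENSMUSG00000021319; chromosome 13, 19623175 to 19632821) stood at 94.8, 127, 436, 395, 323 and 96.3 CPM in GFPtotal 1 to 6 and at 9.68, 1.36, 9.43, 9.39, 61.3 and 16.8 CPM in GFPlow 1 to 6. The groups did not overlap, and GFPlow 5 came nearest to GFPtotal. Sfrp4 was 3.77 log2 units higher (SE 0.82; adjusted p = 0.0216), and 4.71 without GFPlow 5. It missed the threshold when GFPtotal 3, 4 and 5 were left out (2.54, adjusted p = 0.257) or when GFPlow 3, 4 or 6 was (adjusted p = 0.0502 to 0.0532).

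Sfrp1 (ENSMUSG00000031548; chromosome 8, 23411502 to 23449632) stood at 3.48, 5.83, 15.6, 25.2, 22.9 and 1.25 CPM in GFPtotal 1 to 6 and at 0.0632, 0.735, 2.08, 0.177, 0.437 and 0.0543 CPM in GFPlow 1 to 6. GFPtotal 6 lay below GFPlow 3, and the other GFPtotal libraries lay above all GFPlow libraries. Sfrp1 was 4.38 log2 units higher (SE 0.91; adjusted p = 0.0105) and 5.36 without GFPlow 3. It missed the threshold with GFPtotal 3, 4 and 5 left out (2.54, adjusted p = 0.277) and by limma-voom (4.75, adjusted p = 0.0583).

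Of the other inhibitors tested, none passed the test. Dkk3, a secreted protein related in sequence to the Dkk inhibitors, stood at 246 to 361 CPM in GFPtotal 3, 4 and 5. GFPtotal 1, 2 and 6, at 60.8 to 94.3 CPM, lay within the GFPlow range of 38.2 to 95.6 CPM. With all libraries Dkk3 was 1.57 log2 units higher (SE 0.45; adjusted p = 0.0660), and 0.23 without GFPtotal 3, 4 and 5 (adjusted p = 0.821). DESeq2 called Dkk3 (adjusted p = 0.00312), and edgeR called it without GFPtotal 1, 2 or 6 alone (adjusted p = 0.0245 to 0.0465). Sfrp2 was highest in GFPlow 1, at 99.4 CPM, beside 5.37 to 17.8 CPM in GFPlow 2 to 6 and 2.17 to 47.5 CPM in GFPtotal. The estimate was −0.47 (adjusted p = 0.830) and turned to 0.94 without GFPlow 1 (adjusted p = 0.474). Kremen1, a surface receptor for Dkk proteins, stood at 29.7 ± 11.5 and 24.4 ± 8.37 CPM (log2 fold change 0.28, adjusted p = 0.608). Dkk1, Notum, Sfrp5 and Wif1 had too few counts to be tested and Dkk4 had none. Of the 55 counts of Sfrp5, 34 lay in GFPtotal 6 and 13 in GFPtotal 3, and all 6 counts of Notum lay in GFPlow 1.

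**Figure D2:**
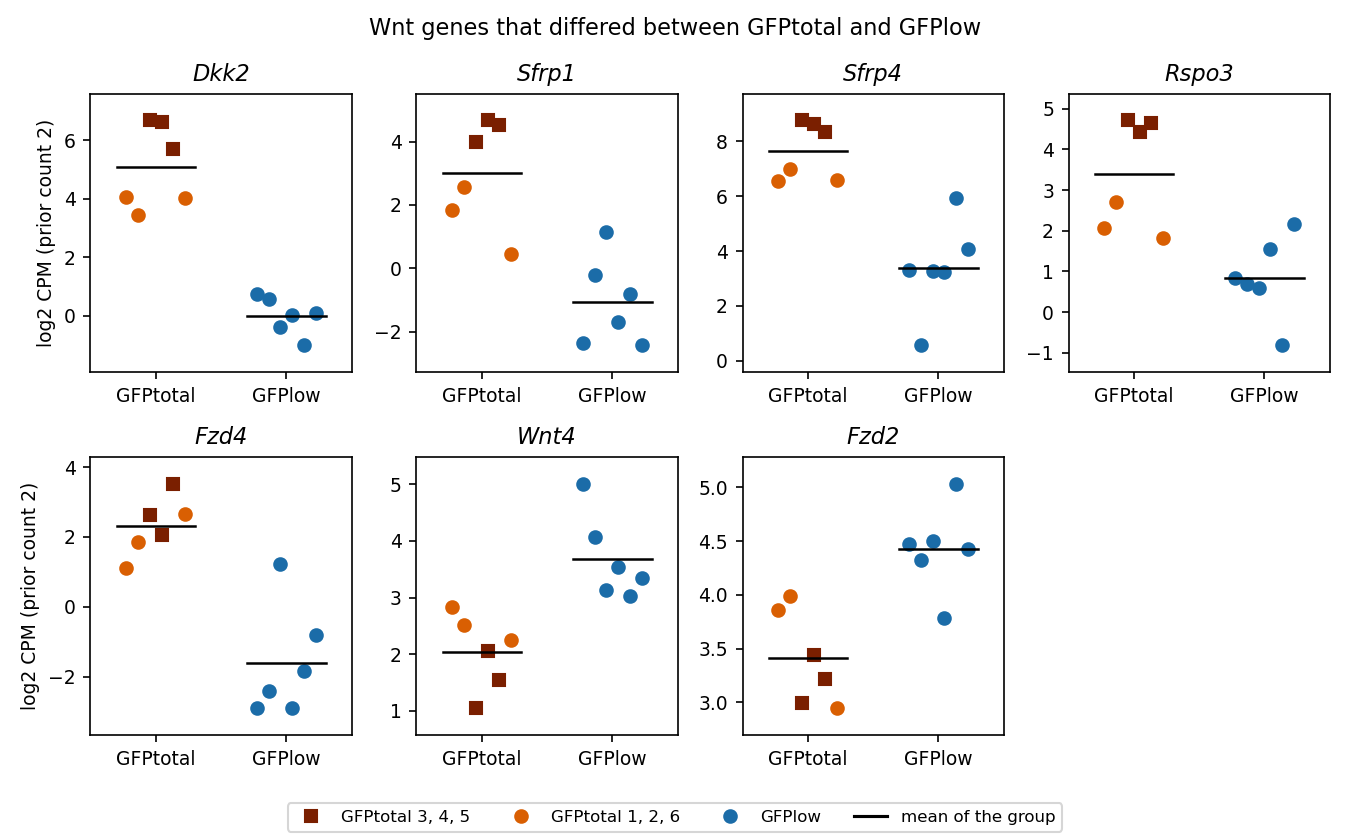
Log2 CPM (y axis, prior count 2, scale differs by panel) of the 7 Wnt genes that passed the test, 1 symbol per library, with the mean of each group as a line. Squares are GFPtotal 3, 4 and 5. In Dkk2, Sfrp1, Sfrp4 and Rspo3 the squares are the highest points, and the GFPtotal and GFPlow points of Dkk2, Sfrp4 and Wnt4 do not overlap.

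Among the ligands, 6 of 19 were tested. By edgeR 0 were higher and 1 was lower in GFPtotal, beside 4.55% and 0.854% of all genes tested. An unadjusted p below 0.05 by edgeR was found for 4 of the 6 (1 of them higher) and for 19.9% of all genes tested. DESeq2 and limma-voom called 0 ligands higher. Wnt4 encodes a ligand needed for Müllerian duct formation and known for its part in decidualization. The gene (ENSMUSG00000036856; chromosome 4, 137277489 to 137299726) stood at 6.96, 5.59, 1.93, 4.05, 2.79 and 4.63 CPM in GFPtotal 1 to 6 and at 32.1, 16.6, 8.68, 11.5, 8.0 and 9.99 CPM in GFPlow 1 to 6. Every GFPlow library lay above every GFPtotal library, with GFPlow 1 the highest. Wnt4 was lower in GFPtotal, at −1.74 log2 units (SE 0.41; adjusted p = 0.0181). It passed the test in 20 of 21 alternatives, at −1.34 without GFPlow 1 (adjusted p = 0.0470), and did not without GFPtotal 3, 4 and 5 (−1.36, adjusted p = 0.199).

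Wnt5a, a ligand known for signalling through Ror receptors, was the most abundant ligand per length, at 42.4 ± 8.61 FPKM (CPM per kilobase of exon) for GFPtotal and 54.2 ± 10.9 FPKM for GFPlow (SD, 6 libraries a group). Wnt16 followed at 9.87 ± 4.33 and 6.47 ± 2.33 FPKM. The ranges of Wnt5a and Wnt16 did not overlap in either group, while those of Wnt16 and Wnt9a did in GFPlow. Wnt5a stood at 259 to 282 CPM in GFPtotal 3, 4 and 5, below the 380.1 to 401 CPM of GFPtotal 1, 2 and 6 and the 328 to 527 CPM of GFPlow. The estimate was −0.36 log2 units (SE 0.17; adjusted p = 0.246) and −0.13 without GFPtotal 3, 4 and 5. Wnt16 had a log2 fold change of 0.61 (adjusted p = 0.248).

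Wnt9a stood at 28.9 CPM in GFPlow 1 and 19.9 CPM in GFPlow 6, beside 7.06 to 10.6 CPM in the other GFPlow libraries and 2.46 to 11.2 CPM in GFPtotal (log2 fold change −1.15, adjusted p = 0.148). Wnt5b and Wnt2b, at log2 fold changes of −0.02 and 0.13, showed no called difference. Wnt5b reached 10.6 CPM in GFPlow 6 alone and stood at 1.30 to 2.98 CPM in the other GFPlow libraries, so its estimate was 0.66 without GFPlow 6. The other 13 ligands failed the filter. Wnt1, Wnt3a, Wnt8a, Wnt9b, Wnt10a and Wnt10b had 0 counts in all 12 libraries, which allows up to 0.0167 CPM (3 counts over all libraries, counting error only). Wnt2, Wnt3, Wnt6, Wnt7b and Wnt11 had at most 9 counts in all. Wnt7a, known from uterine epithelium, had 56 counts, of which 31 lay in GFPlow 3 and 18 in GFPtotal 5. Wnt8b had 41 counts, of which 20 lay in GFPlow 2.

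Of 14 receptors and co-receptors, 11 were tested, 1 was higher and 1 lower by edgeR. Over all genes tested, 4.55% were higher and 0.854% lower. An unadjusted p below 0.05 by edgeR was found for 7 of the 11, of which 5 were higher, and for 19.9% of all genes tested. DESeq2 and limma-voom each called 2 higher and 1 lower. Fzd4, a Frizzled receptor known for its part in vessels of the retina, was measured at low counts. It stood at 2.01, 3.48, 6.08, 3.99, 11.4 and 6.23 CPM in GFPtotal 1 to 6 and at 0, 0.0565, 2.20, 0, 0.146 and 0.434 CPM in GFPlow 1 to 6 (ENSMUSG00000049791; chromosome 7, 89404355 to 89413134). Only GFPlow 3, just above GFPtotal 1, overlapped with GFPtotal. Fzd4 was 3.53 log2 units higher (SE 0.96; adjusted p = 0.0411), and 5.32 without GFPlow 3. It passed the test in 10 of 21 alternatives. It missed the threshold when any single one of GFPtotal 3 to 6 or GFPlow 1, 2, 4, 5 and 6 was left out (adjusted p = 0.0511 to 0.0991), when scaled by total library size (adjusted p = 0.0528) and without GFPtotal 3, 4 and 5 together (3.01, adjusted p = 0.277).

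Fzd2, another Frizzled receptor, stood at 14.4, 15.7, 7.86, 10.7, 9.18 and 7.57 CPM in GFPtotal 1 to 6 and at 22.0, 19.9, 22.6, 13.7, 32.6 and 21.4 CPM in GFPlow 1 to 6 (ENSMUSG00000050288; chromosome 11, 102604396 to 102608058). GFPlow 4 lay below GFPtotal 1 and 2, and the remaining GFPlow libraries lay above all of GFPtotal. Fzd2 was lower in GFPtotal, at −1.01 log2 units (SE 0.27; adjusted p = 0.0333), and passed the test in 11 of 21 alternatives. It missed the threshold when any single one of GFPtotal 3 to 6 or GFPlow 2, 3, 5 and 6 was left out (adjusted p = 0.0546 to 0.0776). The same held without GFPtotal 3, 4 and 5 together (−0.83, adjusted p = 0.283) and with the replicate block (−1.02, adjusted p = 0.0776).

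Fzd7 was separated between the groups without passing the test. It stood at 6.06 to 21.3 CPM in GFPtotal and at 4.49, 0, 5.34, 0.236, 0 and 0.217 CPM in GFPlow 1 to 6, so that 2 GFPlow libraries held nearly all of that group's counts. The estimate was 2.94 log2 units (SE 1.06; adjusted p = 0.136), and limma-voom called it at 5.16 (adjusted p = 0.00856). Fzd1 was the most abundant Frizzled gene per length in both groups by mean, at 23.4 ± 17.6 and 9.47 ± 3.54 FPKM. It stood at 112 to 201 CPM in GFPtotal 3, 4 and 5, at 21.3 to 44.7 CPM in GFPtotal 1, 2 and 6 and at 23.3 to 65.7 CPM in GFPlow. The Fzd1 estimate was 1.30 log2 units (adjusted p = 0.154), turned to −0.15 without GFPtotal 3, 4 and 5, and was called by DESeq2 (adjusted p = 0.0350).

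The co-receptor gene Lrp6 stood at 88.9 ± 11.9 and 88.9 ± 11.8 CPM, and the log2 fold change was 0.00 (SE 0.15; adjusted p = 0.999). Lrp5 stood at 11.1 ± 6.05 and 5.33 ± 2.43 CPM (log2 fold change 1.05, adjusted p = 0.151). The receptor tyrosine kinase genes Ror1 and Ror2 had log2 fold changes of opposite sign, 0.94 (adjusted p = 0.143) and −0.77 (adjusted p = 0.190). Fzd3, Fzd5 and Fzd6 missed the threshold, at 0.18, −0.55 and 0.40 log2 units. Fzd8 had 140 counts and failed the filter, and 70 of them lay in GFPlow 6. Fzd10 had 9 counts, all in GFPtotal, and Fzd9 had 0 counts.

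In the R-spondin axis, 5 of 8 genes were tested. By edgeR 1 was higher and 0 were lower, beside 4.55% and 0.854% of all genes tested. Of the 5, 3 had an unadjusted p below 0.05 by edgeR (1 of them lower), beside 19.9% of all genes tested. DESeq2 called 1 lower, Znrf3. Rspo3 encodes a secreted protein that raises Wnt signalling by way of Lgr receptors. The gene (ENSMUSG00000019880; chromosome 10, 29453109 to 29535867) stood at 4.02, 6.40, 26.1, 21.5, 25.1 and 3.38 CPM in GFPtotal 1 to 6 and at 1.64, 1.47, 1.38, 2.77, 0.437 and 4.34 CPM in GFPlow 1 to 6. GFPtotal 3, 4 and 5 were far above the rest, and GFPlow 6 overlapped with GFPtotal 1 and 6. Rspo3 was 2.83 log2 units higher (SE 0.61; adjusted p = 0.0111), and 1.16 without GFPtotal 3, 4 and 5 (adjusted p = 0.521). It also missed the threshold with the replicate block.

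Lgr6, a receptor for R-spondins, split the GFPtotal libraries in the opposite way. It stood at 167, 186 and 189.9 CPM in GFPtotal 1, 2 and 6, at 12.9, 18.8 and 7.72 CPM in GFPtotal 3, 4 and 5, and at 29.6, 72.5, 76.9, 91.7, 104 and 104 CPM in GFPlow 1 to 6. The GFPlow libraries lay between the GFPtotal values, and the estimate over all libraries was 0.28 log2 units (SE 0.76; adjusted p = 0.889). Without GFPtotal 3, 4 and 5 Lgr6 was called higher (1.16, adjusted p = 0.0319). By limma-voom the estimate over all libraries was negative (−0.75). Lgr4 had a log2 fold change of 1.28 (adjusted p = 0.200).

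Znrf3, the ligase gene, ranged from 7.77 to 22.1 CPM over GFPtotal and from 11.7 to 53.4 CPM over GFPlow, where GFPlow 1 was the highest. The estimate was −1.13 log2 units (SE 0.35; adjusted p = 0.0756), −0.79 without GFPlow 1, and it was called by DESeq2 (adjusted p = 0.0221) and by edgeR without GFPtotal 4 (−1.40, adjusted p = 0.0336) or GFPlow 2 alone. Rspo1 had a log2 fold change of −0.57 (adjusted p = 0.447). Lgr5, a stem cell marker of several epithelia, had 40 counts and failed the filter, with 22 of them in GFPlow 5. Rspo2 had 30 counts, of which 15 lay in GFPlow 3, and Rspo4 had 9.

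None of the 5 feedback and transcription genes was called by edgeR, DESeq2 or limma-voom (0 higher and 0 lower). By edgeR, 4.55% of all genes tested were higher and 0.854% lower. Of the 5 genes, 1 (Axin2) had an unadjusted p below 0.05 by edgeR, beside 19.9% of all genes tested. All 5 log2 fold changes were negative, from −1.33 to −0.17. Axin2, a scaffold of the beta-catenin destruction complex and a widely used readout of the signal, stood at 72.2, 55.1, 18.7, 21.1, 27.1 and 59.8 CPM in GFPtotal 1 to 6 and at 44.8, 73.1, 97.4, 58.3, 64.4 and 87.1 CPM in GFPlow 1 to 6. GFPtotal 3, 4 and 5 were the lowest libraries, and GFPtotal 1, 2 and 6 lay within the GFPlow range. Axin2 had an estimate of −0.74 log2 units (SE 0.32; adjusted p = 0.205) and −0.20 without GFPtotal 3, 4 and 5 (adjusted p = 0.799).

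Lef1, Nkd1 and Nkd2 were set apart by GFPlow 1. Lef1, a transcription factor of the pathway, stood at 33.9 CPM there, beside 0.622 to 3.19 CPM in GFPlow 2 to 6 and 1.07 to 5.71 CPM in GFPtotal. Nkd1, a feedback inhibitor that binds Dishevelled, stood at 17.4 CPM in GFPlow 1, 0.271 to 5.25 CPM in the other GFPlow libraries and 1.31 to 7.18 CPM in GFPtotal. Its relative Nkd2 stood at 70.9 CPM in GFPlow 1, 14.5 to 33.9 CPM in the others and 12.9 to 40.2 CPM in GFPtotal. Without GFPlow 1 the log2 fold changes of Lef1, Nkd1 and Nkd2 turned from −1.33, −0.54 and −0.17 to 0.52, 0.67 and 0.31, none of them called (adjusted p = 0.632 to 0.670). Among other tested Wnt genes, GFPlow 1 was also the highest GFPlow library for Wnt4, Wnt9a, Wnt2b, Rspo1, Sfrp2, Znrf3, Lgr4, Fzd1, Dkk2 and Dkk3. It was the lowest for Lgr6, Axin2, Wnt5a and Wnt16, and tied with GFPlow 4 at 0 counts for Fzd4. Tcf7, another transcription factor of the pathway, had 4.92 ± 2.13 and 7.78 ± 3.24 CPM (adjusted p = 0.366).

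In GFPlow 1 the fibroblast markers summed to 16990 CPM, beside 21756 to 24877 CPM in GFPlow 2 to 6, and the pericyte markers to 68.4 CPM, beside 70.4 to 113 CPM. Pdgfrb alone gave 55.9 CPM of the pericyte sum in GFPlow 1, beside 50.7 to 87.1 CPM in GFPlow 2 to 6. The endothelial markers of GFPlow 1 summed to 60.2 CPM, beside 39.6 to 58.3 CPM. Cdh5 gave 39.6 CPM of that sum, beside 5.05 to 24.0 CPM. In contrast, Kdr had its lowest GFPlow value in GFPlow 1, at 10.9 CPM, beside 14.3 to 32.5 CPM. Tek and Emcn lay within the range of the other GFPlow libraries. The smooth muscle markers of GFPlow 1 summed to 412 CPM, beside 299 to 390 CPM, but Synpo2 alone gave 366 CPM of that sum. Myh11 had its lowest GFPlow value there, at 0.316 CPM. The T and NK cell markers were at 0 counts in GFPlow 1, as in GFPlow 2, 3 and 6, and reached at most 0.295 CPM in GFPlow. In GFPtotal 3, 4 and 5 the pericyte markers summed to 1518 to 1844 CPM, beside 1033 to 1409 CPM in GFPtotal 1, 2 and 6. For smooth muscle markers these ranges were 621 to 754 and 454 to 493 CPM, and for epithelial markers 16.2 to 42.7 and 3.30 to 8.89 CPM. Of the epithelial sums, Ltf gave 7.65 to 31.7 and 0.267 to 1.70 CPM, and Cdh1 5.77 to 6.36 and 0.534 to 2.01 CPM. Epcam, Krt7, Krt8, Krt18 and Krt19 overlapped between these libraries. For fibroblast markers the ranges were 24324 to 29215 and 39762 to 41978 CPM, but the single genes were split. Col1a1, Col1a2, Lum and Vcan were lower in GFPtotal 3, 4 and 5, and Col3a1 and Col15a1 overlapped. Pdgfra, Dcn, Mmp2 and Fbln1 were higher there (Pdgfra 610 to 672 CPM, beside 335 to 392 CPM). For mesothelial markers, where Wt1 gave nearly all of the sum, the ranges were 67.7 to 79.6 and 43.2 to 46.8 CPM. For Schwann cell and glial markers the ranges were 6.14 to 9.71 and 1.93 to 4.99 CPM. The mitochondrial share of counts was 32.4% to 40.5% in GFPtotal 3, 4 and 5 and 45.3% to 49.0% in GFPtotal 1, 2 and 6. GFPlow libraries had 35.1% to 45.7%. The part of these differences in markers and mitochondrial share in the Wnt gene values was not tested.

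**Figure D3:**
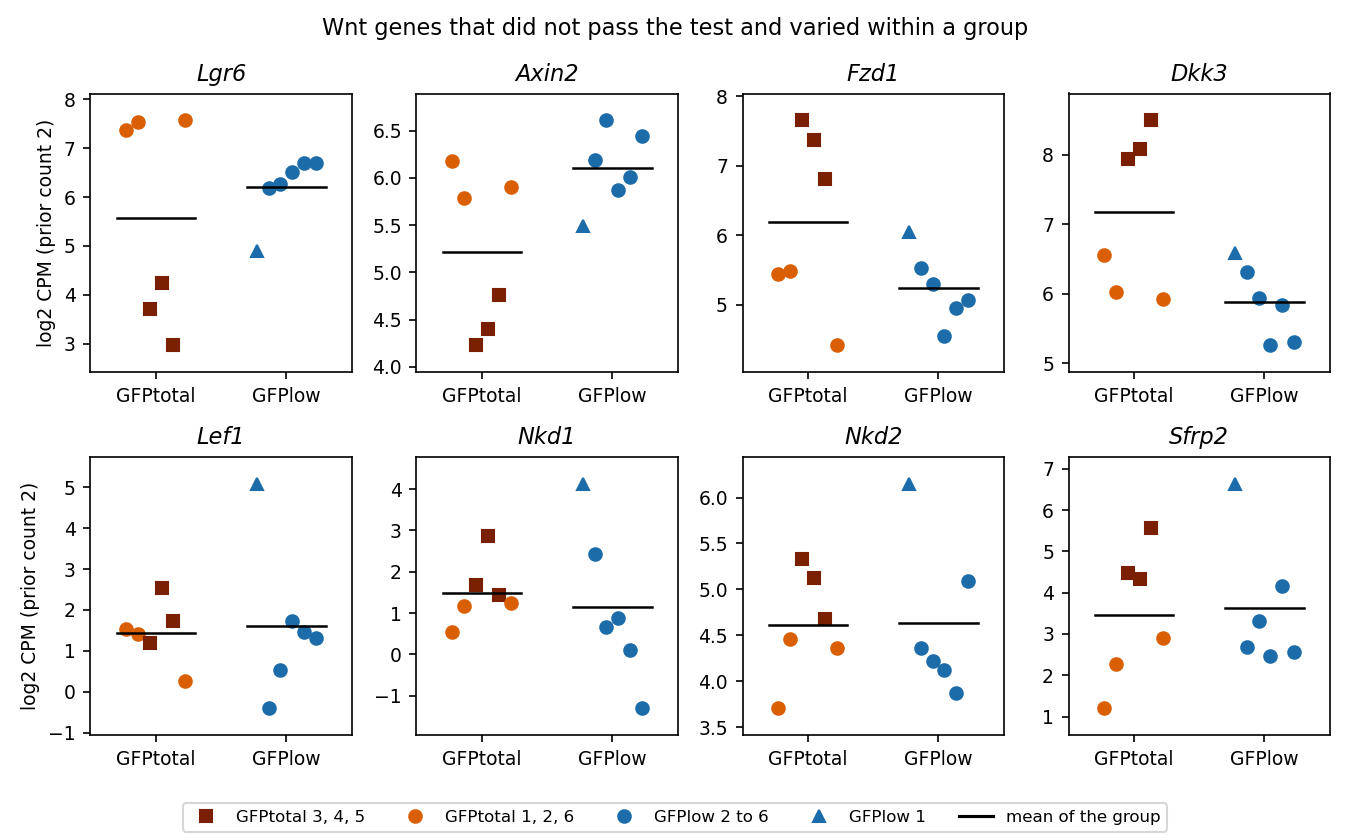
Log2 CPM (y axis, prior count 2, scale differs by panel) of 8 Wnt genes that did not pass the test, chosen after their values were seen, 1 symbol per library, with the mean of each group as a line. In the upper row GFPtotal 3, 4 and 5 (squares) lie apart from GFPtotal 1, 2 and 6, below them for Lgr6 and Axin2 and above them for Fzd1 and Dkk3. In the lower row GFPlow 1 (triangle) is the highest library.

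Compared per length, Sfrp4 had the highest mean of the 33 tested genes in GFPtotal, at 139.7 ± 89.5 FPKM, followed by Dkk3 (54.5 ± 37.7 FPKM) and Wnt5a (42.4 ± 8.61 FPKM). Dkk3 lay above Wnt5a in GFPtotal 3, 4 and 5 (73.3 to 107 against 33.2 to 36.1 FPKM) and below it in GFPtotal 1, 2 and 6 (18.1 to 28.1 against 48.6 to 51.2 FPKM). The ranges of Sfrp4 and Dkk3 overlapped, while every library had more Sfrp4 (at least 54.0 FPKM) than the highest Wnt5a value (51.2 FPKM). In GFPlow the order of the means was Wnt5a (54.2 ± 10.9 FPKM), Dkk3 (18.4 ± 6.70 FPKM) and Axin2 (12.9 ± 3.50 FPKM). All 6 GFPlow libraries had Wnt5a above Dkk3 and Axin2, whereas Dkk3 and Axin2 overlapped. Sfrp4 stood at 10.2 ± 12.4 FPKM in GFPlow, within the range of several other members. Dkk2 stood at 13.3 ± 11.4 FPKM in GFPtotal and 0.255 ± 0.117 FPKM in GFPlow.

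**Figure D4:**
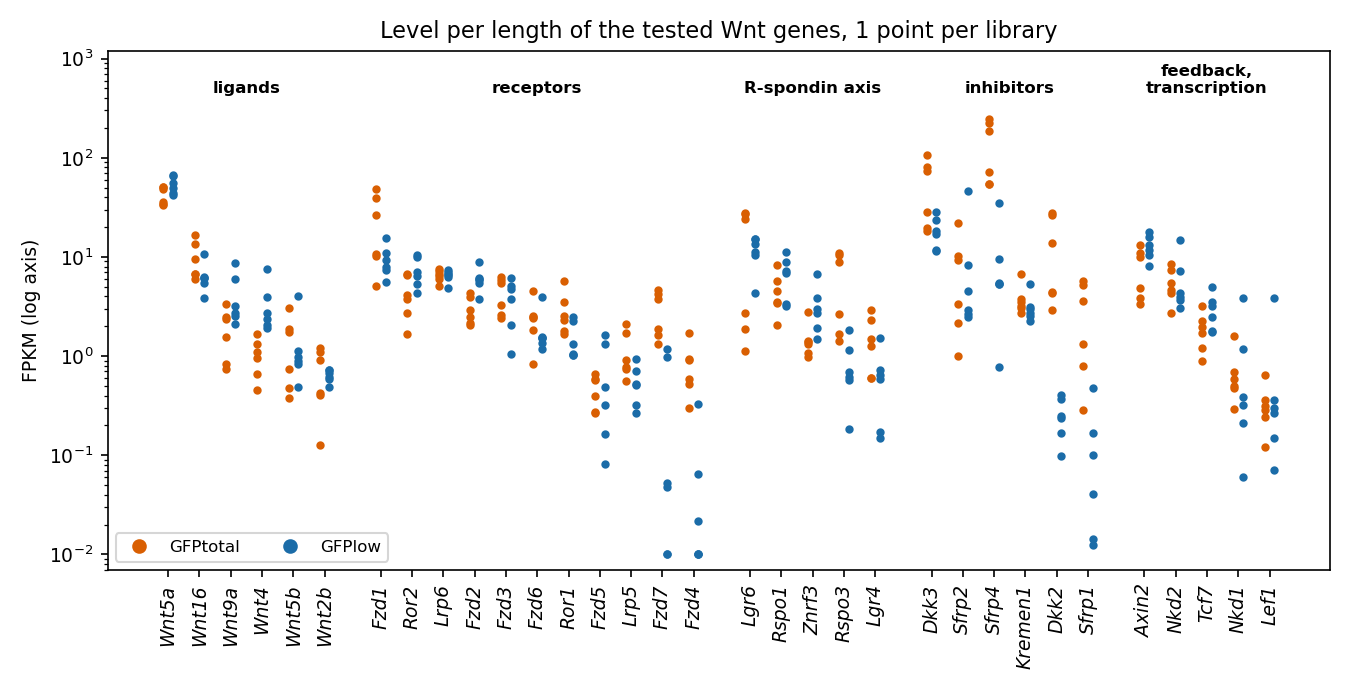
FPKM (y axis, log scale) of the 33 tested Wnt genes, 1 point per library, GFPtotal in orange and GFPlow in blue, grouped by role and ordered by the GFPlow mean. Values under 0.01 FPKM are drawn at 0.01. Wnt5a has the highest GFPlow mean, at 54.2 FPKM, and Sfrp4 the highest GFPtotal mean, at 139.7 FPKM.

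Of 56 further genes of the pathway, chosen by function, 47 were tested, of which 3 were higher and 1 lower (8.51% called, beside 5.41% of all genes), at a median log2 fold change of 0.03. Frzb, which encodes another secreted Frizzled-related protein, stood at 19.3, 11.7, 56.9, 27.3, 34.3 and 13.5 CPM in GFPtotal 1 to 6 and at 7.46, 3.39, 1.82, 2.77, 4.37 and 1.68 CPM in GFPlow 1 to 6. The groups did not overlap. Frzb was 2.92 log2 units higher (SE 0.45; adjusted p = 0.000974), 2.03 without GFPtotal 3, 4 and 5 (adjusted p = 0.0269), and passed the test under all 21 alternatives. The corepressor genes Tle1 and Tle4 were higher, at log2 fold changes of 1.23 (adjusted p = 0.0329) and 1.39 (adjusted p = 0.0472), each called in 8 of 21 alternatives. Neither passed edgeR's test without GFPlow 6 (adjusted p = 0.0728 for Tle1 and 0.0906 for Tle4). Without GFPtotal 3, 4 and 5 the estimates of Tle1 and Tle4 were 0.21 and 1.34 (edgeR, adjusted p = 0.735 and 0.219). The cadherin gene Celsr3, of the planar polarity branch, was lower (−2.43, adjusted p = 0.0204), at 0.479 ± 0.187 against 2.62 ± 1.61 CPM, and was called in 15 of 21 alternatives. Celsr3 missed the threshold with GFPtotal 3, 4 and 5 left out (−2.28, adjusted p = 0.232), and with GFPtotal 3 or GFPlow 1 left out (adjusted p = 0.0568 and 0.0560). It also missed the threshold by limma-voom (adjusted p = 0.0611), with no low-count filter and with the replicate block.

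Ctnnb1, Wls and Porcn were not called. Ctnnb1, which encodes beta-catenin, stood at 197 ± 59.5 and 167 ± 29.8 CPM (log2 fold change 0.23, adjusted p = 0.565). Wls, the carrier that brings Wnt proteins to the cell surface, stood at 143 ± 31.4 and 130.1 ± 44.8 CPM (0.14, adjusted p = 0.770). Porcn, the enzyme that attaches the lipid, stood at 5.37 ± 3.85 and 2.43 ± 0.665 CPM (1.14, adjusted p = 0.172). Rnf43, Sp5, Kremen2, Sost, Sostdc1, Dact2, Ctnnbip1, Celsr1 and Celsr2 failed the filter.

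The counting ignored strand, so reads from overlapping genes on opposite strands cannot be told apart. Of the Wnt genes, 8 share exonic bases with another gene, all on the opposite strand. The share was 29.4% for Notum, 17.8% for Fzd5, 16.1% for Sfrp2, 13.7% for Lef1 and 8.80% for Wnt11, and below 5% for Wnt5a, Axin2 and Wnt7b. None of the 7 genes that passed the test is among them.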

How the data were processed

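RNA was sequenced from 6 GFPtotal and 6 GFPlow libraries. Their labels name a TruSeq DNA Nano gel-free kit and 4 lanes of a HiSeq 4000. The authors deposited raw counts of reads for each gene. Fragments of read pairs were assigned to exons by featureCounts 1.6.4 without regard to strand, at a mapping quality of 10 or more, with Ensembl release 84 on GRCm38, per the file headers. The submitters' processing notes also name cutadapt and SAMtools, and for the aligner the sources used here give no name. The single files and the series table agree in every count for 12 of 12 libraries, and 0 columns were left without a sample. Of 47729 Ensembl identifiers, 47224 had a symbol.

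After a filterByExpr filter and scaling by the TMM method (trimmed mean of M-values), genes were tested with edgeR 4.0.16 in R 4.3.3 (quasi-likelihood F test, robust, two-sided, no covariate) over all 14523 genes. To obtain the SE, the log2 fold change was divided by the root of F. CPM and FPKM were computed from the counts on TMM-scaled library sizes, the latter with the exonic length in the files, with a prior count of 2 for log2 CPM. The script was tested on simulated data. Alternatives were other scalings (size factors by relative log expression, total library size, no mitochondrial genes), filters (no filter, or 10 counts in 6 libraries), tools (DESeq2 1.42.0 and limma-voom, limma 3.58.1), a replicate block, and leaving out libraries. The text names all 57 members, the called genes of a further list of 56 pathway genes, and Ctnnb1, Wls, Porcn and Frzb. Members, lists and alternatives were chosen with earlier results of these data known. Promoter windows are RefSeq's on GRCm38.p6, found for 37 of the 57 genes.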

Additional observations from a re-analysis of the deposited data

Results flagged for a closer look

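Chance flags about 1 in 20 groups, and 5 libraries stood far from the other 5 of their group among 66 sets of values (33 genes in 2 groups). In each, the gap of the outermost library to its neighbour in log2 CPM was over 0.625 of the group's range. Lgr6 stood at a log2 CPM of 4.89 in GFPlow 1, at 29.6 CPM against 72.5 to 104 CPM in the other GFPlow libraries. Fzd6 stood at 4.05 in GFPlow 3 (16.4 CPM, the others 4.83 to 6.38). Lrp6 stood at 6.07 in GFPlow 2 (67.2 CPM, the others 86.8 to 100.5). GFPtotal 4 was high for Znrf3, at 4.47 (22.1 CPM, the others 7.77 to 11.3), and for Kremen1, at 5.71 (52.4 CPM, the others 20.9 to 29.2).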

How the results depend on the processing

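With GFPtotal 3, 4 and 5 left out, 245 genes were higher and 50 lower, 2 Wnt genes higher and 0 lower, and 1 further pathway gene higher and 0 lower, and the median of the Wnt genes was −0.016. That fit has fewer libraries. The cause of the other changes was not tested. DESeq2 called 1033 genes higher and 348 lower (3 further pathway genes lower), limma-voom 230 lower (0 further pathway genes lower), and scaling by total library size alone 257 lower (1 further pathway gene higher and 2 lower). With no low-count filter the Wnt median, then over 49 genes, was −0.023 and 0 further pathway genes were lower. With the replicate block, 492 genes were higher and 90 lower, 4 Wnt genes were higher and 1 was lower (Rspo3 and Fzd2 missed the threshold, at adjusted p = 0.0827 and 0.0776), 1 further pathway gene was higher and 0 were lower, and the Wnt median was 0.27. Same-numbered libraries correlated at −0.14 to 0.09 in their deviations, and 0 of 6 pairs were above 0.1. Differently numbered libraries correlated at −0.15 to 0.16. These values show no sign of a pairing by number, but weak correlations cannot exclude one. Of the 6 GFPtotal libraries, 2 correlated best with their own number. Leaving out 1 library at a time gave 406 to 791 genes higher and 61 to 179 lower, 3 to 6 Wnt genes higher and 1 to 2 lower, 1 to 3 further pathway genes higher and 0 to 2 lower, and a Wnt median of −0.033 to 0.31.

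Sign changes were seen only among genes that were not called with all libraries. Without GFPtotal 3, 4 and 5, Wnt5b had a log2 fold change of 0.65, Fzd1 −0.15, Kremen1 −0.016, Ctnnb1 −0.19 and Wls −0.059. By limma-voom, Wnt2b had −0.21, Fzd5 0.10, Lrp6 0.0060, Lgr6 −0.75 and Nkd1 0.49. With the replicate block, Wnt2b had −0.16, Fzd5 0.0040, Lgr6 −0.64, Sfrp2 0.28, Nkd1 0.60 and Nkd2 0.042. Leaving out 1 library gave −0.021 to 0.36 for Fzd3, −1.64 to 0.52 for Lef1, −0.029 to 0.52 for Lgr6, −0.079 to 0.057 for Lrp6, −0.99 to 0.67 for Nkd1, −0.38 to 0.31 for Nkd2, −1.09 to 0.94 for Sfrp2, −0.10 to 0.35 for Wnt2b and −0.42 to 0.66 for Wnt5b. Counts limit what can be said of Fzd4, Fzd7, Sfrp1 and Dkk2, whose GFPlow values rest on few reads (5 to 24 per library for Dkk2), and of the 24 Wnt genes that failed the filter.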
